A study of Punica granatum with 14 samples.

Results

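Across leaves of 14 pomegranate seedlings, 100 genes were picked as higher, and another 100 as lower, in every treated plant than in both untreated plants, out of 27893 genes counted. Both lists rest on raw counts divided by each library's total and multiplied by 1000000 (CPM), taken as log2(CPM + 1). A gene's score for the higher list is the lowest of the 12 treated values minus the higher of both CK values. For the lower list it is the lower CK value minus the highest treated value. Only scores above 0 were kept, genes in which 1 chemical, or paclobutrazol and B9 jointly, stood wholly beyond all remaining libraries were dropped, and the 100 highest scores in each direction became the members. The members were thus selected on their expression in treated plants against CK, all 6 comparisons share the same CK libraries, and every value against CK, counts of calls included, is given as a description and not as evidence of a shift.

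The plants were wild-type 'Hongmanao' seedlings raised from stem tips in tissue culture on a medium with the auxin IBA, which the controls received too. Leaves were taken at 90 days from CK (distilled water), from plants given 6 or 8 mg/L paclobutrazol, from those given 6 or 8 mg/L of B9, and from those given 2.5 or 15 g/L of mannitol, with 2 plants for each of the 7 conditions and 1 library per plant. Total counts ranged from 15790717 to 28385703 per library. In whole leaves, fewer cells of a type and less RNA per cell cannot be told apart. The label leaf could not be checked against marker genes, because the gene table used here pairs no symbol with a product name.

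Plant growth retardants shorten stems by different routes. Paclobutrazol is a triazole that blocks an early oxidation in gibberellin synthesis, and B9 (daminozide) blocks late oxidations of the same pathway, so both lower the active forms of the hormone that drives stem elongation. Mannitol is a sugar alcohol that draws water from cells and is used in culture media to mimic drought. All members carry locus symbols, which no source used here ties to a gene product, so they are described by their levels, their pattern over plants and their gene models.

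Of the 23231 genes with at least 1 read, 371 (1.6%) had all treated libraries above both CK libraries and 1244 (5.35%) had all of them below. The step that drops genes set apart by a chemical removed 60 and 91 of these, and left 311 and 1153. Among the 60, 40 were set apart by B9 and 16 by paclobutrazol and B9 jointly, whereas among the 91 the numbers were 22 and 34, with 32 set apart by paclobutrazol. The balance of both directions moved with the scaling. With TMM-scaled library sizes 667 genes were kept as higher and 572 as lower, since the TMM factors of CK were 1.08 and 1.09 and those of the treated libraries 0.90 to 1.06. On the scale of library totals the median tested gene of a treated library was shifted from the CK mean by -0.19 to -0.025 on the log2 scale, in the direction of the lower list. Most members did not hang on this choice, as 98 of the higher and 99 of the lower list were also beyond both CK libraries with TMM, and 87 of each stayed among the 100 highest scores. They did hang on the 2 CK plants. Without replicate 1 of CK, 727 genes were kept as higher and 2617 as lower, and 55 and 21 members stayed among the 100 highest. Without replicate 2 of CK, 757 and 2119 genes were kept, and 66 and 44 members stayed. Without replicate 2 of 15 g/L mannitol, 507 genes were kept as higher.

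Scores ran from 1.69 to 0.24 in the higher list and from 1.90 to 0.39 in the lower list. The last member of the higher list, LOC116212896, had 2.23 and 1.71 CPM in CK and at least 2.80 CPM in the treated libraries, a score of 0.236. The first gene outside it, LOC116196913, scored 0.233. In the lower list LOC116213140 was the last member (0.3905) and LOC116215086 the first gene outside (0.3901), so that both limits lie in a smooth run of scores. All 200 members passed edgeR's filter on low counts.

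Several members of the higher list were close to silent in CK and reached very unequal levels in treated leaves. LOC116212359, with the highest score, had 1.35 and 1.37 CPM in CK, 6.93 and 22.9 under 6 mg/L and 8.51 and 10.6 under 8 mg/L paclobutrazol, 60.7 and 32.5 with 6 mg/L and 36.4 and 22.7 with 8 mg/L B9, 18.3 and 7.87 under 2.5 g/L and 8.12 and 6.62 under 15 g/L mannitol. The mean of the 12 treated libraries was 14.8 times that of CK, and the 3 highest values were those of B9 plants. LOC116211880 had 1.87 and 5.82 CPM in CK, 145 and 4471 under 6 mg/L and 34.2 and 342 under 8 mg/L paclobutrazol, 4846 and 1876 with 6 mg/L and 2821 and 1629 with 8 mg/L B9, 299 and 20.4 under 2.5 g/L and 75.0 and 26.7 under 15 g/L mannitol. Its treated libraries differed among themselves by a factor of 237, the widest spread in the higher list.

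Some of the same libraries were high in the next genes. LOC116194165 had 0.159 and 1.03 CPM in CK, 7.16 and 136 under 6 mg/L and 6.40 and 16.8 under 8 mg/L paclobutrazol, 169.7 and 112 with 6 mg/L and 96.1 and 52.8 with 8 mg/L B9, 17.6 and 5.29 under 2.5 g/L and 16.8 and 9.74 under 15 g/L mannitol. LOC116196060 had 1.39 and 1.33 CPM in CK, 7.73 and 31.5 under 6 mg/L and 5.41 and 12.2 under 8 mg/L paclobutrazol, 49.0 and 28.03 with 6 mg/L and 42.8 and 33.7 with 8 mg/L B9, 17.4 and 7.12 under 2.5 g/L and 11.1 and 7.09 under 15 g/L mannitol. LOC116212642 had no read in replicate 1 and 1 read (0.0428 CPM) in replicate 2 of CK, 1.64 and 28.8 CPM under 6 mg/L and 2.07 and 7.92 under 8 mg/L paclobutrazol, 54.97 and 16.2 with 6 mg/L and 25.2 and 16.7 with 8 mg/L B9, 10.5 and 2.27 under 2.5 g/L and 2.36 and 0.983 under 15 g/L mannitol. In each of these genes the B9 plants and replicate 2 of 6 mg/L paclobutrazol were high, and replicate 1 of 6 mg/L paclobutrazol was low among the treated plants. Over the 12 treated libraries, which all these genes share, the Pearson correlations of LOC116211880 with LOC116194165, LOC116196060 and LOC116212642 were 0.95, 0.96 and 0.95.

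A second group of highly expressed members had the same plants at the top but was not silent in CK. LOC116214825 had 78.9 and 183 CPM in CK, 395 and 6817 under 6 mg/L and 1655 and 5365 under 8 mg/L paclobutrazol, 6566 and 5859 with 6 mg/L and 2911 and 3279 with 8 mg/L B9, 964 and 843 under 2.5 g/L and 1745 and 1033 under 15 g/L mannitol. LOC116197661 had 38.9 and 59.5 CPM in CK, 160.4 and 4848 under 6 mg/L and 640.3 and 2337 under 8 mg/L paclobutrazol, 4207 and 3128 with 6 mg/L and 2193 and 2562 with 8 mg/L B9, 558 and 115 under 2.5 g/L and 515 and 234 under 15 g/L mannitol. Their treated means were 23.9 and 36.4 times those of CK, and over the treated libraries both genes had a correlation of 0.94. Replicate 2 of both paclobutrazol doses stood with B9, and replicate 1 stood nearer to mannitol. LOC116203159, a much rarer transcript with 0.22 CPM in CK and 3.34 on average in treated leaves, followed them with correlations of 0.95 and 0.97.

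The other leading members varied less between treated plants. LOC116201128 had 123 and 108 CPM in CK, 369.5 and 282 under 6 mg/L and 392 and 319 under 8 mg/L paclobutrazol, 287 and 315 with 6 mg/L and 366 and 337 with 8 mg/L B9, 415 and 378 under 2.5 g/L and 277 and 269 under 15 g/L mannitol. Its highest treated library was 1.54 times its lowest, and its mean in treated leaves was 334 ± 49.7 CPM (SD, n = 12) against 115 ± 10.5 (SD, n = 2) in CK. LOC116188132 had 1.07 and 0.556 CPM in CK, 5.69 and 14.4 under 6 mg/L and 6.05 and 5.89 under 8 mg/L paclobutrazol, 8.21 and 17.4 with 6 mg/L and 6.83 and 7.25 with 8 mg/L B9, 7.12 and 13.8 under 2.5 g/L and 7.33 and 4.49 under 15 g/L mannitol. Its treated plants of all 3 chemicals overlapped. LOC116189483 had 6.48 and 2.44 CPM in CK, 56.8 and 31.2 under 6 mg/L and 47.7 and 67.0 under 8 mg/L paclobutrazol, 27.96 and 13.6 with 6 mg/L and 23.3 and 19.2 with 8 mg/L B9, 25.8 and 15.5 under 2.5 g/L and 36.7 and 17.8 under 15 g/L mannitol. Here 3 of the 4 paclobutrazol plants were the highest, while B9 and mannitol plants overlapped.

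**Figure D1:**
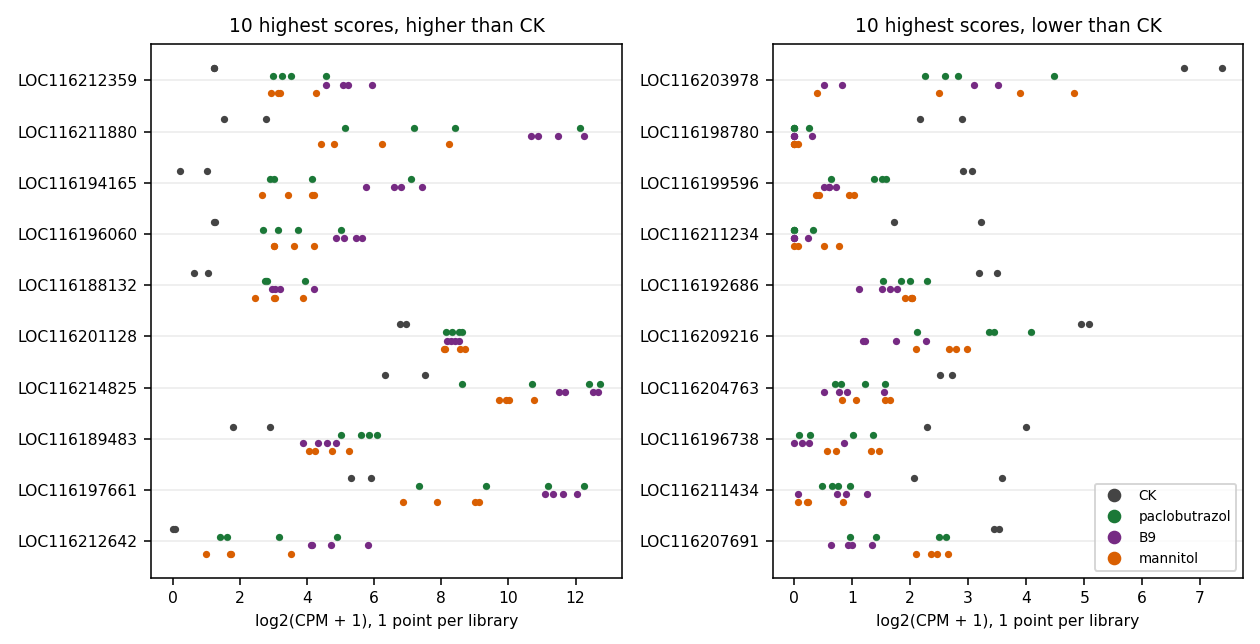
Expression of the 10 members with the highest score in each direction, as log2(CPM + 1) on the horizontal axis with 1 point per library, coloured by CK, paclobutrazol, B9 and mannitol. CK points lie apart from all treated points because the score required it, and the treated points of LOC116201128 lie close together while those of LOC116211880 span a factor of 237.

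The scores ranked 11 to 20 belonged to LOC116209568, LOC116187935, LOC116202497, LOC116198767, LOC116211034, LOC116203159, LOC116203637, LOC116213658, LOC116212806 and LOC116205967. Their treated means lay between 3.07 and 33.9 times the CK means. LOC116202497, a long non-coding RNA, had 0.0398 and 0.0856 CPM in CK, and 0.961 to 3.67 with a median of 2.16 CPM in treated leaves. LOC116205967 was the most abundant member, with 2258 and 3325 CPM in CK and 5082 to 31262 CPM with a median of 9829 in treated leaves. Its highest values, 24153 and 31262 CPM, were those of the 8 mg/L paclobutrazol plants. At rank 26, LOC116200065 repeated the pattern of LOC116211880 at a higher CK level, with 57.4 and 39.5 CPM in CK, 7683 CPM in replicate 2 of 6 mg/L paclobutrazol and 85.5 CPM in replicate 2 of 2.5 g/L mannitol.

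Over the whole higher list, the ratio of the treated mean to the CK mean had a median of 3.33 and ranged from 1.52 up to that of LOC116212642, whose CK value rests on a single read. The ratio was over 4 in 46 members, over 10 in 19 and under 2 in 9. Mean CK levels were under 1 CPM in 20 members, 1 to 10 CPM in 36, 10 to 100 CPM in 34 and over 100 CPM in 10. Among the 12 treated plants the highest value was at the median 3.76 times the lowest, with 13 members over 10 times and 35 under 3 times. The higher list thus held both narrow shifts, as in LOC116201128, and steep ones that differed greatly between plants.

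The leading genes of the lower list ranged from strong to weak expression in CK, and several were near zero in some or all treated plants. LOC116203978 had 105 and 165 CPM in CK, 3.78 and 6.12 under 6 mg/L and 21.4 and 5.07 under 8 mg/L paclobutrazol, 0.776 and 0.422 with 6 mg/L and 10.5 and 7.53 with 8 mg/L B9, 4.63 and 0.306 under 2.5 g/L and 27.3 and 13.9 under 15 g/L mannitol. Its CK mean was 15.9 times the treated mean, and 15 g/L mannitol and replicate 1 of 8 mg/L paclobutrazol kept the most. LOC116198780 had 3.50 and 6.42 CPM in CK, from 88 and 150 reads. No read was counted in 9 of the 12 treated libraries, and the others had 0.190 CPM in replicate 2 of 8 mg/L paclobutrazol, 0.236 in replicate 2 of 8 mg/L B9 and 0.0414 in replicate 1 of 15 g/L mannitol. With a floor of 3 counts over the group, it was at least 70.2-fold lower with paclobutrazol at 6 mg/L, at least 71.5-fold lower with B9 at 6 mg/L and at least 76.4-fold lower under 2.5 g/L mannitol. Such floors cover counting error only.

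LOC116200333, at rank 15, was the only member with no read in all 12 treated libraries. It had 16 and 22 reads in CK (0.636 and 0.942 CPM), which makes it at least 70.8-fold lower over the treated libraries together with the same floor. LOC116211234 had 2.31 and 8.35 CPM in CK, 0.246 and 0 under 8 mg/L paclobutrazol, 0.176 and 0 with 8 mg/L B9, 0 and 0.0437 under 2.5 g/L and 0.704 and 0.427 under 15 g/L mannitol. No read of it was counted under 6 mg/L paclobutrazol or 6 mg/L B9, where it was at least 75.3-fold and 76.8-fold lower. LOC116200335, at rank 53, had 12 and 24 reads in CK and 1 read in all treated libraries together. In these scarce genes the CK level itself was close to what a few reads can show, and the CK replicates of LOC116211234 were far apart.

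The other leading members of the lower list kept a measurable level under treatment. LOC116199596 had 6.48 and 7.32 CPM in CK, 2.00 and 1.605 under 6 mg/L and 0.541 and 1.84 under 8 mg/L paclobutrazol, 0.639 and 0.516 with 6 mg/L and 0.423 and 0.512 with 8 mg/L B9, 1.03 and 0.918 under 2.5 g/L and 0.290 and 0.342 under 15 g/L mannitol. Both plants of 15 g/L mannitol were its lowest. LOC116192686, a long non-coding RNA, had 10.3 and 8.13 CPM in CK, 3.87 and 3.01 under 6 mg/L and 1.87 and 2.60 under 8 mg/L paclobutrazol, 2.14 and 1.17 with 6 mg/L and 2.43 and 1.85 with 8 mg/L B9, 3.04 and 3.10 under 2.5 g/L and 3.11 and 2.73 under 15 g/L mannitol. Its treated values ran from 1.17 CPM with 6 mg/L B9 to 3.87 CPM under 6 mg/L paclobutrazol. LOC116209216 had 29.8 and 33.0 CPM in CK, 9.25 and 3.36 under 6 mg/L and 15.85 and 9.88 under 8 mg/L paclobutrazol, 1.32 and 2.39 with 6 mg/L and 1.27 and 3.82 with 8 mg/L B9, 3.30 and 6.86 under 2.5 g/L and 5.88 and 5.38 under 15 g/L mannitol. B9 gave 3 of its 4 lowest values, and 3 of the 4 paclobutrazol plants its highest.

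LOC116204763 had 4.69 and 5.56 CPM in CK, 1.96 and 0.752 under 6 mg/L and 1.33 and 0.633 under 8 mg/L paclobutrazol, 0.867 and 0.422 with 6 mg/L and 1.94 and 0.709 with 8 mg/L B9, 0.772 and 1.09 under 2.5 g/L and 2.15 and 1.97 under 15 g/L mannitol. LOC116196738 had 3.90 and 15.0 CPM in CK, 1.02 and 0.201 under 6 mg/L and 1.57 and 0.0633 under 8 mg/L paclobutrazol, 0.0912 and 0 with 6 mg/L and 0.810 and 0.197 with 8 mg/L B9, 0.472 and 0.656 under 2.5 g/L and 1.74 and 1.496 under 15 g/L mannitol. In both genes replicate 1 of paclobutrazol was above replicate 2 at either dose, and 15 g/L mannitol was nearest to CK. LOC116211434 had 3.18 and 11.04 CPM in CK, 0.400 and 0.953 under 6 mg/L and 0.689 and 0.570 under 8 mg/L paclobutrazol, 0.0456 and 0.656 with 6 mg/L and 0.845 and 1.38 with 8 mg/L B9, 0.0429 and 0.787 under 2.5 g/L and 0.166 and 0.171 under 15 g/L mannitol. LOC116207691 had 10.6 and 9.93 CPM in CK, 5.11 and 0.953 under 6 mg/L and 4.63 and 1.65 under 8 mg/L paclobutrazol, 0.547 and 0.891 with 6 mg/L and 0.986 and 1.54 with 8 mg/L B9, 3.30 and 4.15 under 2.5 g/L and 4.52 and 5.30 under 15 g/L mannitol. Its mannitol plants and replicate 1 of paclobutrazol formed an upper set, and B9 with replicate 2 of paclobutrazol a lower set.

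Ranks 11 to 20 of the lower list were LOC116195220, LOC116210463, LOC116204074, LOC116194280, LOC116200333, LOC116187912, LOC116198838, LOC116215026, LOC116213031 and LOC116204003. Apart from LOC116200333, their CK means were 2.62 to 7.16 times their treated means. Over the whole lower list the ratio of CK to treated means had a median of 3.22 in the 99 members with any treated read, was over 4 in 39 and under 2 in 9. Members with at least 1 treated library without a read numbered 16. CK levels reached 226 CPM in LOC116203534, the highest of the lower list, against 2792 CPM in LOC116205967 of the higher list. LOC116203534 had 232 and 221 CPM in CK and 51.5 to 167 CPM with a median of 107 in treated leaves.

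The size of the shift from CK differed between conditions. In the higher list the median shift of condition means was 1.71 on the log2(CPM + 1) scale under 6 mg/L B9 and 1.59 under 8 mg/L B9. It was 1.48 and 1.46 under 6 and 8 mg/L paclobutrazol, 1.29 under 2.5 g/L and 0.97 under 15 g/L mannitol. The largest of the 6 shifts fell on a B9 dose in 58 members, on paclobutrazol in 29 and on mannitol in 13. The lower list had median shifts of 1.53 and 1.29 under 6 and 8 mg/L B9, 1.32 and 1.36 under 6 and 8 mg/L paclobutrazol, and 1.25 and 0.91 under 2.5 and 15 g/L mannitol. In 44 members of the higher and 53 of the lower list the smallest shift was that of 15 g/L mannitol. The order of conditions depends in part on this scale. As log2 fold changes in the edgeR fit described below, the higher list had medians of 2.03 and 1.98 for 6 and 8 mg/L B9. They were 2.02 and 1.94 for 6 and 8 mg/L paclobutrazol, and 1.75 and 1.53 for 2.5 and 15 g/L mannitol. In the lower list they were, in the same order, -2.25 and -1.45, -1.57 and -1.57, and -1.58 and -0.99. Members wholly set apart by 1 chemical had been dropped, which narrows such differences.

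Single plants spread widely inside conditions. Within 6 mg/L paclobutrazol, replicate 1 had a median shift of 0.99 in the higher list and replicate 2 of 1.79, and in the lower list their medians were -0.98 and -1.69. Both plants were over 1 apart on the log2 scale in 43 of the 100 higher members, compared with 25.8% of all tested genes. The pair of 8 mg/L paclobutrazol was over 1 apart in 16 members (4.30% of tested genes), that of 2.5 g/L mannitol in 22 (5.40%) and that of CK in 7 (3.21%). In the lower list the numbers were 20 at 6 mg/L and 13 at 8 mg/L paclobutrazol, 4 at 2.5 g/L mannitol and 4 in CK. The pair of 8 mg/L B9 was over 1 apart in 19 lower members and 1 higher member (4.55% of tested genes). Replicate 2 was the higher plant in 74 members of the higher list at 6 mg/L (46.4% of tested genes) and in 77 at 8 mg/L paclobutrazol (44.1%), and replicate 1 in 79 at 2.5 g/L (53.7%) and 85 at 15 g/L mannitol (58.2%). The nearest treated library to CK, which sets the score, was replicate 2 of 15 g/L mannitol in 31 higher members and replicate 1 of 6 mg/L paclobutrazol in 19. For the lower list it was replicate 1 of 15 g/L mannitol in 27 and again replicate 1 of 6 mg/L paclobutrazol in 19. With both 6 mg/L paclobutrazol plants left out (a setting added once the data had been seen), 62 higher and 61 lower members stayed among the 100 highest scores.

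**Figure D2:**
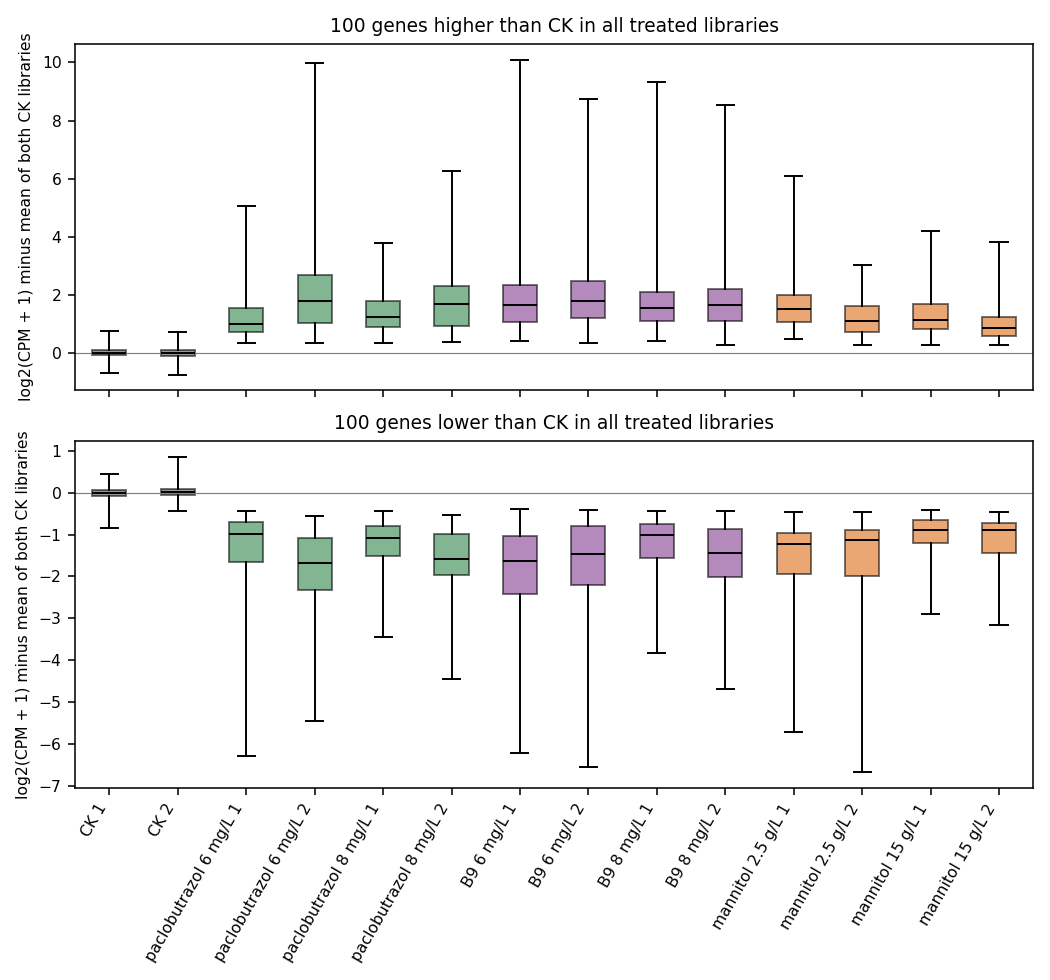
Shift of the 100 members of each list from the mean of both CK libraries on the log2(CPM + 1) scale (vertical axis), for each of the 14 libraries, with boxes for the middle 50%, lines for the median and whiskers from the lowest to the highest member. Median shifts in the higher list ran from 0.85 in replicate 2 of 15 g/L mannitol to 1.80 in replicate 2 of 6 mg/L B9, and those of the lower list from -0.89 in replicate 1 of 15 g/L mannitol to -1.69 in replicate 2 of 6 mg/L paclobutrazol.

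Members were called unevenly when each treatment was set against CK in edgeR's quasi-likelihood fit of all 14 libraries (|log2 fold change| over 1 and adjusted p under 0.05). Since these contrasts chose the members, the counts are given only as a description. Under 6 mg/L paclobutrazol 57 of the higher members were called higher (2.41% of all tested genes) and 24 of the lower members lower (1.6%). At 8 mg/L paclobutrazol the numbers were 63 (3.9%) and 30 (4.2%, and 8.1% in either direction). At 6 mg/L B9 they were 76 (3.03%) and 56 (3.7%, and 6.73% in either direction), and at 8 mg/L B9 41 (1.04%) and 11 (0.539%). Under 2.5 g/L mannitol 6 (0.0359%) and 1 (0.0205%) were called, where 0.0565% of tested genes passed in either direction. Under 15 g/L mannitol 1 (0.0103%) and 0 (0.0154%) were called, where 0.0257% passed in either direction. At an unadjusted p under 0.05 with the same fold threshold, 74 higher and 29 lower members passed under 15 g/L mannitol (5.42% of tested genes in either direction), and 80 and 76 under 2.5 g/L (8.29%). DESeq2 on all libraries called 125 members of both lists under 2.5 g/L mannitol (4.62% of tested genes) and 60 under 15 g/L (2.23%). LOC116201128 was called in all 6 treatments, LOC116203637 and LOC116200139 in 5, while 6 higher and 28 lower members were called in none.

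The number of calls moved with single libraries. Leaving out any of the 14 libraries moved at least 1 of the 6 counts by over 1.5 times. Without replicate 2 of CK no member was called in any treatment, and without replicate 1 of CK the 6 counts over both lists were 0 to 22. CK is then a single plant assumed to vary like the other conditions. Whether the lost calls reflect less power or the size of the shift was not tested. Without replicate 1 of 6 mg/L paclobutrazol 148 of the 200 members were called at 6 mg/L (23.1% of tested genes) and 149 at 8 mg/L paclobutrazol (18.7%), 143 at 8 mg/L B9 (12.2%), and 99 and 40 under 2.5 and 15 g/L mannitol (2.92% and 1.12%). Without replicate 2 of 6 mg/L paclobutrazol the numbers were 41 (2.79%), 150 (18.7%), 145 (12.1%), 97 (2.89%) and 41 (1.14%). The share of all genes called thus moved in the same settings.

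Setting both doses of a chemical against each other uses no CK library, and the difference between doses did not rank the genes. The same treated values did enter the score, through the library nearest to CK, and the drop step. The dose comparison is thus not independent of the choice of members. It asked whether the genes shifted in every treatment also followed the dose. Between 6 and 8 mg/L paclobutrazol, 1 of the higher and 2 of the lower members differed, all with more at 8 mg/L (0.57% of all tested genes, while 0.924% were lower at 8 mg/L). Both counts are near the 1.49% of tested genes called in either direction. Of the B9 doses, no member was called (0.00513% of tested genes, in either direction), and none of the mannitol doses (0.0%). With the same fold threshold and an unadjusted p under 0.05, 21 lower members were above and 0 below at the higher dose of B9. Of the 19478 tested genes 549 were above and 86 below (3.26% in either direction). For mannitol 21 lower members were above and 3 below, against 746 and 481 tested genes (6.3%). For paclobutrazol 8 were above and 2 below, against 991 and 1272 (11.6%). DESeq2 on all libraries called 9 members of the higher and 8 of the lower list between the paclobutrazol doses, near the 7.32% of tested genes it called. It called 0 and 3 between the B9 doses (0.457%), and 1 and 13 between the mannitol doses (2.54%).

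In the lower list, expression was mostly less reduced at the higher dose of mannitol, and for B9 mainly in replicate 1 of 8 mg/L. On the log2(CPM + 1) scale, the median shift from CK was -1.44 in replicate 2 of 8 mg/L B9. It was -1.62 and -1.47 in the 6 mg/L plants. Replicate 1 of 8 mg/L B9 was closer to CK, and the pair was over 1 apart in 19 members. Both plants of 15 g/L mannitol (-0.89 and -0.90) were closer to CK than those of 2.5 g/L (-1.24 and -1.12). The log2 fold change from the lower to the higher dose was above 0 in 74 of 100 members for B9 and in 79 for mannitol, compared with 51.0% and 48.3% of all tested genes. Its median was 0.26 for B9 and 0.51 for mannitol, while that of all tested genes was 0.0076 and -0.019. For paclobutrazol it was above 0 in 51 members (47.5% of tested genes), with a median of 0.052. With members at the floor set to their bounds, and without those at the floor under both doses, the medians were 0.30 for B9 (96 members), 0.51 for mannitol (95) and 0.049 for paclobutrazol (93). On the CPM scale both plants of 15 g/L lay above both of 2.5 g/L mannitol in 55 lower members (20.5% of tested genes), both plants of 8 mg/L B9 above both of 6 mg/L in 32 (19.3%), and both plants of 8 mg/L paclobutrazol above both of 6 mg/L in 22 (24.8%).

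In the higher list, log2 fold changes from the lower to the higher dose were below 0 in 66 members for B9 (48.9% of tested genes), 69 for mannitol (51.6%) and 63 for paclobutrazol (52.4%). Their medians were -0.14, -0.23 and -0.11, and that of all tested genes for paclobutrazol was -0.036. On the CPM scale, both plants of 8 mg/L lay below both of 6 mg/L B9 in 34 members (23.1% of tested genes). Both plants of 15 g/L mannitol lay below both of 2.5 g/L in 37, a share near that of all tested genes (35.9%). For paclobutrazol both plants of 8 mg/L lay below both of 6 mg/L in 13 members (15.8%) and above in 14 (24.8%).

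**Figure D3:**
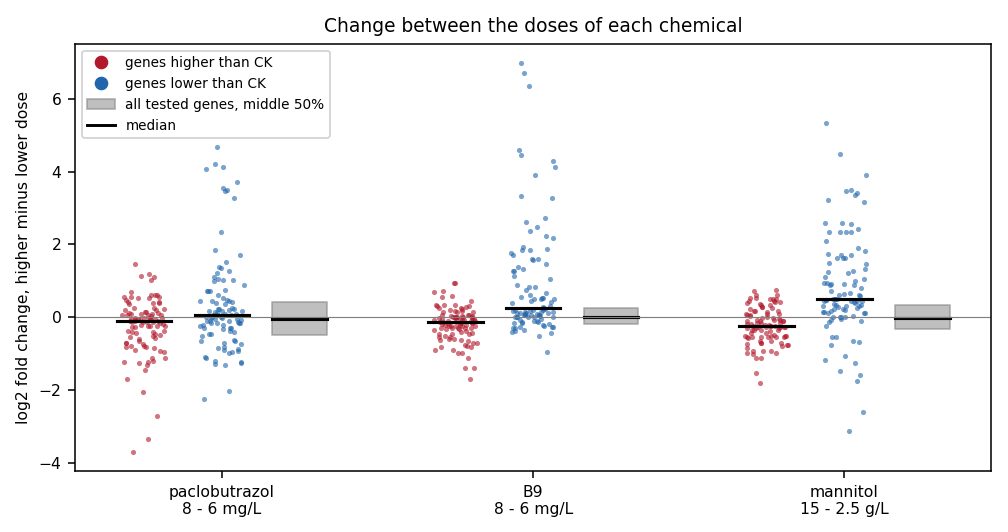
Log2 fold change from the lower to the higher dose of each chemical in the fit of all libraries (vertical axis), with 1 point per member of the higher (red) and lower list (blue), black lines for medians and grey boxes for the middle 50% of all tested genes. Medians of the lower list were 0.052 for paclobutrazol, 0.26 for B9 and 0.51 for mannitol, and points far from 0 include members with no read at 1 dose, whose fitted value is not a measured size.

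Both lower members called between the paclobutrazol doses also had higher means at the higher dose of B9 and mannitol, without passing there. LOC116212794 had 8.39 and 6.16 CPM in CK, 0.222 and 0.301 under 6 mg/L and 4.23 and 2.91 under 8 mg/L paclobutrazol, 0.867 and 1.13 with 6 mg/L and 4.09 and 1.73 with 8 mg/L B9, 0.772 and 0.524 under 2.5 g/L and 3.61 and 2.86 under 15 g/L mannitol. Its log2 fold change between the paclobutrazol doses was 3.71 (standard error 0.53, edgeR quasi-likelihood adjusted p = 0.0167, Benjamini-Hochberg). All higher-dose plants lay above all lower-dose plants in this gene. Its call held under 19 of 21 alternatives, with adjusted p from 1.46e-06 to 0.483, and was lost in edgeR on only the 4 libraries compared and without replicate 1 of 8 mg/L paclobutrazol (adjusted p = 0.121). LOC116205124 had 12.1 and 10.7 CPM in CK, 0.222 and 0.301 under 6 mg/L and 7.18 and 2.03 under 8 mg/L paclobutrazol, 1.14 and 1.55 with 6 mg/L and 6.62 and 1.42 with 8 mg/L B9, 0.729 and 0.437 under 2.5 g/L and 6.42 and 5.73 under 15 g/L mannitol. Its log2 fold change between the paclobutrazol doses was 4.08 (standard error 0.83, adjusted p = 0.0454 from the same edgeR test), and the call was lost under 12 of 21 alternatives, with adjusted p from 7.86e-05 to 0.491. The 12 included all but 3 of the single libraries left out.

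In the higher list LOC116211259 was called between the paclobutrazol doses. It had 25.3 and 23.1 CPM in CK, 36.3 and 35.4 under 6 mg/L and 101 and 58.8 under 8 mg/L paclobutrazol, 101 and 117 with 6 mg/L and 121 and 131 with 8 mg/L B9, 60.3 and 47.9 under 2.5 g/L and 58.5 and 73.6 under 15 g/L mannitol. On the log2 scale the difference was 1.12 with a standard error of 0.24 (edgeR adjusted p = 0.0497), and the call was lost under 16 of 21 alternatives, with adjusted p from 0.000996 to 0.591. The difference was 0.70 without replicate 1 of 8 mg/L paclobutrazol and 1.44 without replicate 2. Counts of calls between the paclobutrazol doses also moved with single libraries. They were 15 members of the higher and 13 of the lower list without replicate 2 of 6 mg/L paclobutrazol, below the 19.7% of tested genes called in that setting. Without replicate 1 of it they were 8 and 2 (3.68% of tested genes), and at most 1 and 2 without any other library. Without replicate 1 of 8 mg/L paclobutrazol both were 0, and without either replicate of 6 mg/L paclobutrazol 1 lower member was called between the mannitol doses.

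Among 5 lower members both plants of the higher dose lay above both of the lower dose for all 3 chemicals (3.28% of tested genes), named here after their values were seen. They were LOC116211018, LOC116210575, LOC116192901, LOC116212794 and LOC116213140. LOC116210575 had 59.5 and 48.2 CPM in CK, 9.65 and 8.07 under 6 mg/L and 30.3 and 17.0 under 8 mg/L paclobutrazol, 7.12 and 11.9 with 6 mg/L and 29.9 and 14.8 with 8 mg/L B9, 8.96 and 6.56 under 2.5 g/L and 32.2 and 16.3 under 15 g/L mannitol. LOC116211018 had 59.99 and 41.6 CPM in CK, and its lower-dose plants ranged from 3.63 to 7.77 CPM while its higher-dose plants ranged from 7.85 to 27.2 CPM. In the higher list 2 of the 100 members, LOC116211884 and LOC116210804, had every higher-dose plant below the lower-dose plants of the same chemical. This is no more than the share of all tested genes (3.22%). LOC116211884 had 1.15 and 1.33 CPM in CK, 5.91 and 16.6 under 6 mg/L and 2.41 and 3.23 under 8 mg/L paclobutrazol, 17.8 and 19.6 with 6 mg/L and 12.3 and 14.4 with 8 mg/L B9, 4.89 and 3.85 under 2.5 g/L and 3.32 and 3.20 under 15 g/L mannitol.

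Further lower members with most of their CK level lost at the lower doses kept more at the higher doses in some plants only. LOC116194280 had 104 and 127 CPM in CK, 0.489 and 1.65 under 6 mg/L and 31.8 and 8.99 under 8 mg/L paclobutrazol, 3.74 and 1.73 with 6 mg/L and 49.7 and 3.51 with 8 mg/L B9, 1.20 and 1.14 under 2.5 g/L and 61.6 and 27.3 under 15 g/L mannitol. LOC116204074 had 56.4 and 50.0 CPM in CK, 2.89 and 5.57 under 6 mg/L and 24.2 and 7.66 under 8 mg/L paclobutrazol, 6.80 and 7.22 with 6 mg/L and 17.4 and 3.51 with 8 mg/L B9, 6.47 and 7.17 under 2.5 g/L and 29.2 and 16.02 under 15 g/L mannitol. In both genes replicate 1 of every higher dose was above replicate 2, and the 8 mg/L B9 plants overlapped those of 6 mg/L. Their correlation over the treated libraries was 0.90. In LOC116193432 and LOC116211374 both plants of the higher dose lay above both of the lower dose for B9 and mannitol, but not for paclobutrazol, where the plants of LOC116211374 overlapped. LOC116211374 had 21.4 and 14.3 CPM in CK, 0.578 and 0.702 under 6 mg/L and 0.689 and 0.697 under 8 mg/L paclobutrazol, 1.14 and 1.27 with 6 mg/L and 7.22 and 1.497 with 8 mg/L B9, 0.858 and 0.350 under 2.5 g/L and 8.87 and 3.72 under 15 g/L mannitol.

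**Figure D4:**
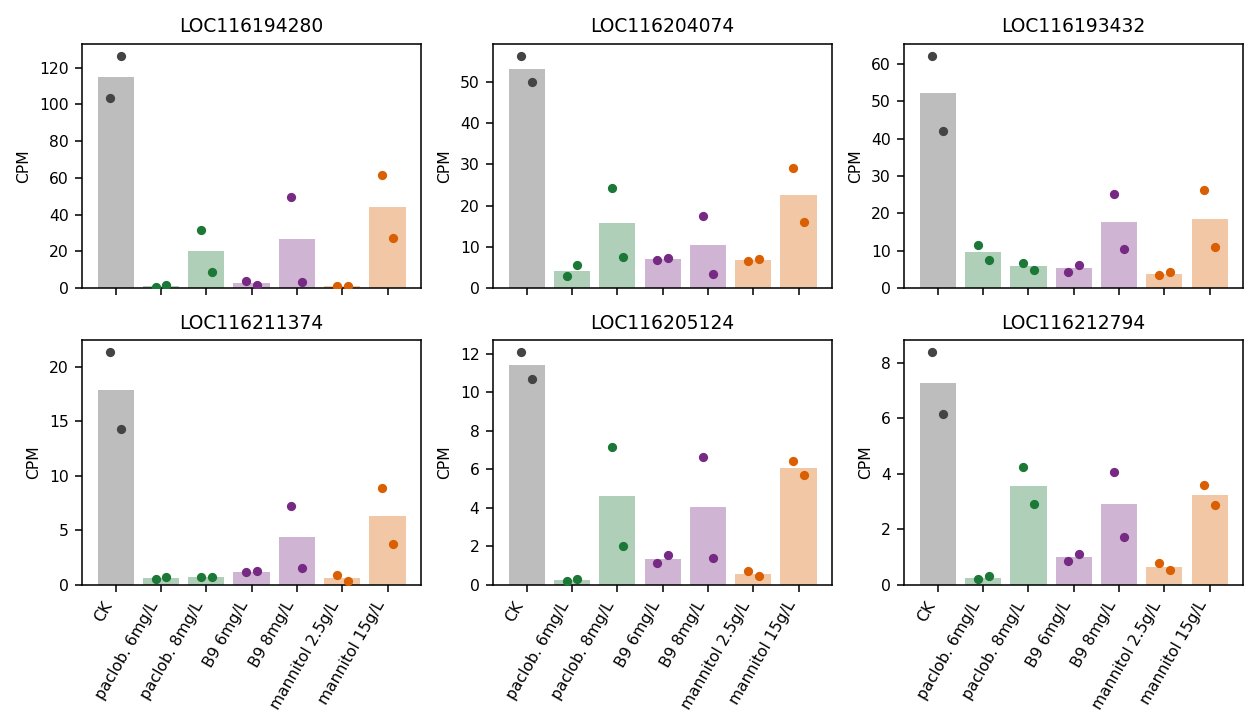
CPM of 6 lower members chosen after their values were seen, with bars for the mean and points for both plants of each condition, on axes that start at 0. Apart from paclobutrazol in LOC116193432, where it is lower, each higher-dose mean is above that of the lower dose, and every treated mean stays below CK. The plants of a higher dose are often far apart, as in LOC116194280 with 49.7 and 3.51 CPM under 8 mg/L B9.

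A direct test of whether the step from 6 to 8 mg/L differed between paclobutrazol and B9 called none of the 200 members in edgeR (0.169% of tested genes, with 0.0565% higher and 0.113% lower). With the fold threshold and an unadjusted p under 0.05, 4 members of the higher and 12 of the lower list passed (7.17% of tested genes). The test was added after the data were seen. No other tool was run on it.

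The members were mostly ordinary protein-coding genes. The higher list held 94 protein-coding genes and 6 long non-coding RNAs, the lower list 95 and 5, and among all tested genes 95.2% and 4.46% were of these kinds. The gene model had a single transcript in 80 higher and 77 lower members, compared with 66.1% of tested genes. Median gene lengths, introns included, were 2318.5 bases in the higher list, 3028 in the lower list and 3104 over tested genes. Read support differed between the lists, as the median of the mean count per library was 595 in the higher list, 88.8 in the lower list and 382 over tested genes. CK replicates were at a median 0.20 apart on the log2 scale in the higher and 0.16 in the lower list, against 0.18 over tested genes. Replicate 1 was the higher CK plant in 51 and 49 members.

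Across the 12 treated libraries, the mean Pearson correlation over all pairs of members was 0.25 in the higher and 0.19 in the lower list (99 members, without LOC116200333), and 0.021 over all pairs of tested genes. All pairs share the same libraries, and the value is a description. In the gene order of the assembly ASM765513v2, 6 pairs of members lay within 3 genes of each other. Directly adjacent were the lower members LOC116200335 and LOC116198780, both nearly silent under treatment, the lower members LOC116208041 and LOC116206995, and the lower member LOC116205008 with the higher member LOC116205808. Over the treated libraries the correlations of these adjacent pairs were, in the order named, 0.021, 0.54 and -0.17. LOC116209216 and LOC116209220, with 1 gene between them, had a correlation of 0.64. With 2 genes between them lay LOC116200333 and LOC116199596, both in the lower list, and LOC116202705 of the lower list with LOC116205999 of the higher list. The correlation of LOC116202705 with LOC116205999 was -0.55. Whether 6 close pairs are more than other genes would give was not tested. The spans of 17 members, introns included, overlap another annotated gene. Whether their exons overlap was not checked, and whether the counting used strand is not given in the sources used here. Reads from any stretch that both genes share may thus be missing or miscounted. None of the genes described by single values is among the 17 except LOC116211374, whose span overlaps that of LOC116211370.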

How the data were processed

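The deposited values are raw counts per gene from featureCounts, without normalization. The authors had aligned reads that passed quality control to a pomegranate genome with HISAT2 and discarded those with multiple alignments. The genome is identified by a citation without a build name, and program versions and the strand setting are not given in the sources used here. Reads shared by near-identical genes are therefore missing. No column was left unmapped to a sample, and 27509 of 27893 symbols matched the RefSeq gene table of ASM765513v2, which was used for gene type, length and order. It holds no product names or sequences, so planned lists of protein signatures and the check of leaf markers were not run.

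Members were found from CPM with a pseudocount of 1. The members, lists and named-gene rule were chosen with earlier results of these data known. Named are the 10 highest scores per direction with every value, ranks 11 to 20, the genes at the limit of 100, the 5 smallest adjusted p among members called between doses, and neighbouring pairs. Others were chosen after their values were seen.

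Tests were run with edgeR 4.0.16 under R 4.3.3 (TMM, filterByExpr with a minimum count of 10, 19478 genes, 7 condition means, quasi-likelihood test, 7 residual degrees of freedom). P-values were adjusted by Benjamini-Hochberg over all tested genes. Standard errors are the fold change divided by the square root of F. The biological coefficient of variation was 32.2%. P-values rest on the spread between the 2 plants of a condition, pooled over all 7 conditions, and not on the compared plants alone. A group without reads was given a floor of 3 counts over the group. Alternatives were DESeq2 1.42.0, its size factors, other filters and pseudocounts, no drop step, a replicate block and each library left out. Both the rule and the fit were run on simulated counts with planted changes, as a check of the code. The counts for the rule held counting error only, without variation between plants. They cannot show how the rule behaves with 2 CK plants that vary. Those for the fit used the spread estimated from these data.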

Additional observations from a re-analysis of the deposited data

How the results depend on the processing

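Genes kept by the rule numbered 667 higher and 572 lower with TMM-scaled library sizes and 627 and 599 with DESeq2 size factors, in place of 311 and 1153. With each library left out in turn they ranged from 284 to 757 and from 1163 to 2617. Other pseudocounts, the low-count filter and the drop step moved both by less than 1.5 times. Replicate numbers were not treated as pairs in the main fit. Of 21 correlations between conditions, 6 were over 0.1 (lowest -0.29, highest 0.39). Whether plants with the same number shared a source was not tested. With the replicate block, members called against CK were 30 at 8 mg/L B9 (0.642% of tested genes), 12 at 2.5 g/L (0.128%) and 0 at 15 g/L mannitol (0%). Without it they were 52 (1.58%), 7 (0.0565%) and 1 (0.0257%). Between the paclobutrazol doses 0 higher members were called with the block (1.13%). The block moved no other count by over 1.5 times. DESeq2 on all libraries called 140 and 145 members for 6 and 8 mg/L paclobutrazol (9.62% and 17.8% of tested genes). It called 138 for 8 mg/L B9 (9.19%), 125 for 2.5 g/L (4.62%) and 60 for 15 g/L mannitol (2.23%). Between doses it called 9 and 8 for paclobutrazol (higher and lower list, 7.32% of tested genes), 3 for B9 (lower, 0.457%) and 1 and 13 for mannitol (2.54%). On the 4 libraries compared, DESeq2 called 0 and 4 for paclobutrazol (2% of tested genes), 2 and 6 for B9 (1.31%), and 1 and 19 for mannitol (4.66%). On these libraries edgeR called 0 members and 0% of tested genes throughout. For 2.5 g/L mannitol 23 members were called with DESeq2 size factors (0.329% of tested genes) and 24 without filter (0.267%). At a mean of 50 counts 25 were called (0.533%), where 15 g/L gave 2 (0.0444%). Between paclobutrazol doses, DESeq2 size factors (1.56% of tested genes) and the filter at 50 counts (2.04%) each gave 2 higher members. Without both libraries of 6 mg/L paclobutrazol, 1 lower member was called between the mannitol doses (0.917% of tested genes). With single libraries left out, calls over both lists ranged from 0 to 148 at 6 mg/L and from 0 to 150 at 8 mg/L paclobutrazol, from 0 to 168 at 6 mg/L and from 0 to 145 at 8 mg/L B9, and from 0 to 99 and 0 to 41 under mannitol. Between paclobutrazol doses they ranged from 0 to 15 (higher list) and 0 to 13 (lower list), and between mannitol doses from 0 to 1 (lower list). The causes were not tested. Depth limits members under about 1 CPM, which rest on few reads. A missed call does not show that doses act alike.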
